A study of Mus musculus with 4 samples.

Results

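The 8 genes described here encode the main blood-vessel growth signals of the pituitary and the proteins that receive them: the ligands Vegfa and Angpt1, the receptors Kdr, Flt1 and Tek, the co-receptors Nrp1 and Nrp2, and the endothelial protein Plvap. They were chosen by symbol from the 32285 genes of each count matrix, for their place in the pathway. The data were droplet single-cell RNA-seq (10x Genomics Chromium 3′ v3.1) of whole pituitary glands from male wild-type mice of the C57BL/6J strain, kept for 12 weeks on a control diet (CTRL) or on a high-fat diet (HFD). Each diet had 2 libraries, called CTRL 1, CTRL 2, HFD 1 and HFD 2. All groups share the strain, the sex and the genotype, as the labels give them. Neither the age of the mice nor the number of glands in a library is stated there. The labels do not say that libraries came from separate animals, so p-values measure only the spread between these libraries, which may be technical.

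Vascular endothelial growth factor A, the product of Vegfa, is secreted by many tissue cells and binds the receptor tyrosine kinases VEGFR2 (Kdr) and VEGFR1 (Flt1) on endothelial cells. VEGFR2 carries most of the growth signal, while VEGFR1, which is also made as a soluble form, binds the ligand tightly and acts largely as a trap. Angiopoietin 1 (Angpt1) binds the receptor TIE2 (Tek) and stabilises vessels, the neuropilins Nrp1 and Nrp2 are co-receptors for VEGF ligands and for class 3 semaphorins, and Plvap forms the diaphragms of fenestrated capillaries. The anterior pituitary is perfused by such fenestrated capillaries, through which its hormones reach the blood.

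Each deposited barcode carried counts of unique molecular identifiers (UMIs), each of which stands for 1 captured RNA molecule. The deposited libraries held between 74758237 and 101903367 UMIs, and the median kept cell had between 10127.5 and 18003 UMIs. Of 34737 deposited barcodes, 4509 carried the same sequence as a barcode of another library with at least 10 times the UMIs. Most of these, 3092, were barcodes of HFD 1 that matched HFD 2, where the copy held a median of 5.64% of the UMIs of its source, and 95.5% of the 1345 such pairs with a cell class fell into the same class. A further 1006 barcodes of HFD 1 matched CTRL 2 and 396 of CTRL 2 matched HFD 1. All 4509 were left out as copies, a choice made after seeing the data, and the main values that rest on HFD 1 are also given with them kept. The origin of the copies was not tested. After the limits of 500 or more genes and no more than 20% mitochondrial UMIs, and the removal of 1322 putative doublets, 23980 cells remained, and pairs of libraries shared 7 to 18 barcodes.

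The kept cells formed 26 clusters, of which those named from marker genes made 17 classes, called "-like" because the names rest on RNA alone. The 8 genes took no part in clustering or naming. In a check of the tissue label, Gh was at 350117 to 439803 CPM (UMIs of a gene per 1000000 UMIs of a class in a library) in somatotrope-like cells and Prl at 141529 to 238758 in lactotrope-like cells. All 9 endothelial markers, such as Pecam1 at 503 to 594 CPM, passed in the endothelial-like class, as did all 8 gonadotrope markers in the gonadotrope-like class. Unnamed clusters held 854 cells. Endothelial-like cells numbered 1140, with 221 and 376 in CTRL 1 and 2 and 300 and 243 in HFD 1 and 2. Gonadotrope-like cells, which make the gonadotropins, numbered 885, with 197, 183, 147 and 358 in the same order.

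The receptors Kdr, Flt1 and Tek shared their leading class, and Nrp2 was the member that passed the test between the diets, in 1 class, so the upstream bases of these 4 genes are shown. Each line gives the 250 bases just before the RefSeq start of the gene in build GRCm38.p6, read 5′ to 3′ on the strand of the gene. Capitals mark GGAA, or TTCC on the other strand, the core letters bound by ETS factors, a family with many members in endothelial cells.
Kdr, chr5:75978456-75978705, minus strand: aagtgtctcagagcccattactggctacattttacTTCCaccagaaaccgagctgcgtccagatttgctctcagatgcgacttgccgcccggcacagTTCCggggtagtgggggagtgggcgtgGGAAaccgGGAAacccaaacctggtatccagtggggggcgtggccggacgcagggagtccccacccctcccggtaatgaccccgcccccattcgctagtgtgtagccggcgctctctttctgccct
Flt1, chr5:147726012-147726261, minus strand: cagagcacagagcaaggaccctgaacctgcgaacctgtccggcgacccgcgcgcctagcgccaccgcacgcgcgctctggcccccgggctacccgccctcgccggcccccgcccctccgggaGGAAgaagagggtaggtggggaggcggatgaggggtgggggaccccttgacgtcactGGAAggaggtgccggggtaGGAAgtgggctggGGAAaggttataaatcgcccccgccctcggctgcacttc
Tek, chr4:94739039-94739288, plus strand: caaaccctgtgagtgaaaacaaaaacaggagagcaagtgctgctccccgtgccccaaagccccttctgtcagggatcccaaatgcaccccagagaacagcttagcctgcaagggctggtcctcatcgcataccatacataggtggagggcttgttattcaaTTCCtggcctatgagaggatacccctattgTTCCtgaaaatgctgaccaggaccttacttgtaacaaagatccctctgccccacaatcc
Nrp2, chr1:62703067-62703316, plus strand: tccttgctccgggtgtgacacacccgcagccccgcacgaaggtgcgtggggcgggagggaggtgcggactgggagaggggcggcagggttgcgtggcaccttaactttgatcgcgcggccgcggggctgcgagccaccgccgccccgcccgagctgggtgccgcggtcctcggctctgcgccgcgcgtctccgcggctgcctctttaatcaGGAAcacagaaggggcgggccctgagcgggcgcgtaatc
Kdr and Flt1 held 4 such matches each, Tek held 2 and Nrp2 held 1. Of all 32851 RefSeq promoter windows of this length, 93.4% held at least 1 match and the median window held 3, so the letters are common and the counts only describe these windows. The motif AAGGTCA, or TGACCTT on the other strand, which is the core bound by the gonadotrope factor SF1, was found in 4.08% of all windows. It had 0 matches in the Nrp2 window, 0 in that of the main Vegfa start and 1 in that of Nrp1. In all, 6 of the 8 genes had an entry in the RefSeq promoter table, while Angpt1 and Plvap had none.

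Genes are located as in GENCODE vM21 on mm10. Vegfa lies at chr17:46016993-46032369 on the minus strand, Angpt1 at chr15:42424723-42676977 on the minus strand, Kdr at chr5:75932827-75978458 on the minus strand and Flt1 at chr5:147561604-147726011 on the minus strand. Tek lies at chr4:94739289-94874976 on the plus strand, Nrp1 at chr8:128358604-128503363 on the plus strand, Nrp2 at chr1:62703285-62818695 on the plus strand and Plvap at chr8:71497765-71511752 on the minus strand. All 8 are protein-coding, and 3′ counts sum over the exons of a gene without telling its isoforms apart.

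The first question was which cells of the gland held RNA for the ligands and which held RNA for the receptors. Detection is the share of cells with at least 1 UMI after each cell was thinned to 2000 UMIs, because deep cells show a gene more often. Classes were rebuilt from the same cells, so their order is a description with no test. Among the 13 classes with at least 20 cells in every library, the receptors and Plvap were highest in endothelial-like cells, while Vegfa and Angpt1 were highest in other classes, hormone-making and glial cells.

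Vegfa, the main VEGF ligand, had its highest level in pituicyte-like cells, the glia of the posterior lobe, at 141, 145, 250 and 169 CPM in CTRL 1, CTRL 2, HFD 1 and HFD 2. Gonadotrope-like cells followed at 175, 190, 117 and 134 CPM. The ranges of these classes overlapped, so their order is not set by these data. Mesenchymal-like cells came next at 85.4, 84.8, 76.9 and 45.7 CPM, below every library of both leading classes, and stem-like cells followed at 18.1 to 30.3 CPM. In somatotrope-like cells, the most numerous class, Vegfa was at 1.68 to 2.53 CPM. After thinning, 24.4% of 873 gonadotrope-like cells and 28.5% of 151 pituicyte-like cells had a Vegfa UMI, against 0.418% of 8380 somatotrope-like cells. Before thinning the shares were 89.6% and 67.8%, at median depths of 27314 and 14252.5 UMIs, against 2.78% at 12690.5 UMIs in somatotrope-like cells.

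Gonadotrope-like cells held 65.4%, 56.1%, 51.1% and 66.9% of all Vegfa UMIs of CTRL 1, CTRL 2, HFD 1 and HFD 2. Stem-like cells held 9.73% over all libraries and pituicyte-like cells 7.16%. Endothelial-like cells themselves had Vegfa at 13.6 to 30.3 CPM, with a UMI in 130 of 1140 cells. The letters ACGTG, or CACGT on the other strand, are the core of the hypoxia-inducible factor site. They were found 0 times in the 250 bases before the main Vegfa start, and 16.6% of all windows held them. A second listed Vegfa start had 1 match, in a window that lies inside the Vegfa gene as located above. Bases beyond these windows were not searched, so the counts only describe the windows.

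Angpt1, the TIE2 ligand, was highest in lactotrope-like cells, the prolactin makers. It stood at 166 and 149 CPM in the CTRL libraries and at 222 and 203 CPM in the HFD libraries, above every library of every other tested class. Mesenchymal-like cells followed with 109, 100, 65.9 and 68.9 CPM, then pericyte-like cells with 66.3, 35.9, 39.2 and 35.7, and stem-like cells with 44.7, 32.5, 52.3 and 41.3. The ranges of mesenchymal-like and pericyte-like cells overlapped at 1 library each, and those of pericyte-like and stem-like cells overlapped too. Endothelial-like cells, which carry the receptor, had 0.865 to 3.63 CPM. Lactotrope-like cells held 84.8% of all Angpt1 UMIs of the gland. After thinning, 30.3% of 5042 lactotrope-like cells had an Angpt1 UMI, against 0.442% of 8380 somatotrope-like cells, and before thinning 75.1% and 2.66% did, at median depths of 11939 and 12690.5 UMIs. The lactotrope-like cells came from 2 clusters, and Angpt1 was high in both, at 164 and 205 CPM over all libraries.

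**Figure D1:**
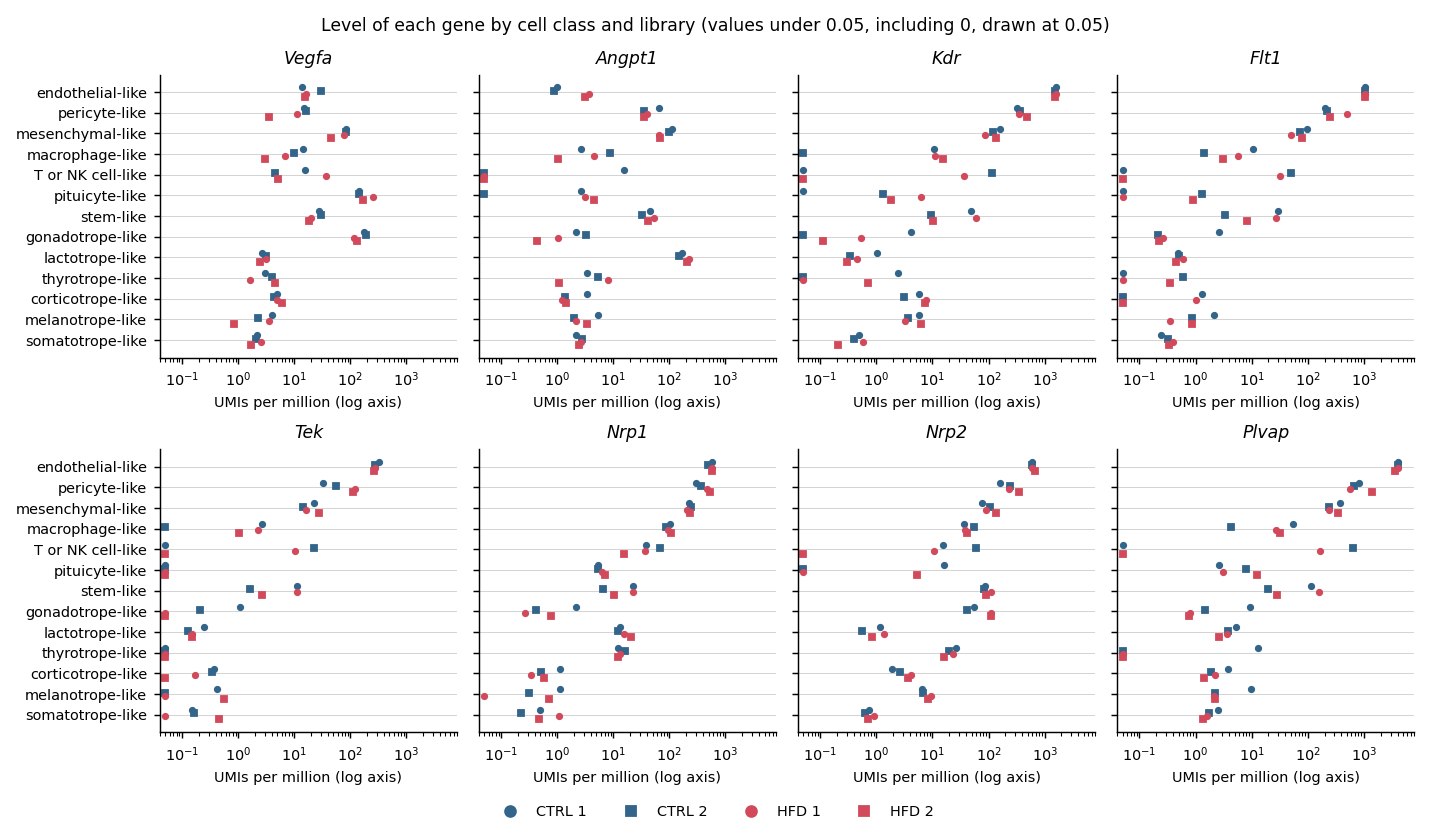
Each panel plots 1 gene, with the cell classes on the vertical axis and the CPM of a library on a logarithmic horizontal axis; blue marks CTRL, red marks HFD, circles and squares mark libraries 1 and 2. Kdr, Flt1, Tek and Plvap peak in endothelial-like cells, Vegfa in pituicyte-like and gonadotrope-like cells, and Angpt1 in lactotrope-like cells.

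Kdr, the signalling VEGF receptor, stood at 1619, 1517, 1564 and 1507 CPM in endothelial-like cells, in the same library order. The decoy receptor Flt1 stood at 1036, 1071, 1044 and 1062 CPM, and Tek, the angiopoietin receptor, at 322, 276, 273 and 265 CPM. Plvap, the diaphragm protein, had 4130, 4009, 4159 and 3635 CPM. For each of these 4 genes the 4 libraries lay close together and above all libraries of every other class. After thinning, 90.1% of 1090 endothelial-like cells had a Kdr UMI, 76.9% a Flt1 UMI, 37.5% a Tek UMI and 99.1% a Plvap UMI. In somatotrope-like cells the same shares were 0.0835% for Kdr, 0.131% for Flt1, 0.107% for Tek and 0.418% for Plvap. Without thinning, 97.1% of endothelial-like cells had a Kdr UMI, 91.1% a Flt1 UMI, 70.7% a Tek UMI and 99.2% a Plvap UMI at a median depth of 5569.5 UMIs.

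The co-receptors were shared more widely. Nrp1, which partners VEGFR2, stood at 574, 492, 573 and 581 CPM in endothelial-like cells, at 294, 362, 465 and 531 in pericyte-like cells, and at 228, 240, 203 and 231 in mesenchymal-like cells. The endothelial-like and pericyte-like ranges overlapped, and macrophage-like cells followed at 86.6 to 107 CPM. Endothelial-like cells held 56.7% of the Nrp1 UMIs, lactotrope-like cells 12.5% and mesenchymal-like cells 10.9%.

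Nrp2, the neuropilin best known from veins and lymphatics, stood at 590, 607, 605 and 674 CPM in endothelial-like cells of CTRL 1, CTRL 2, HFD 1 and HFD 2. In pericyte-like cells it stood at 158, 241, 230 and 353 CPM. Mesenchymal-like, stem-like and gonadotrope-like cells followed with overlapping ranges of 77.0 to 138, 84.5 to 112 and 42.0 to 110 CPM. Endothelial-like cells held 46% of the Nrp2 UMIs, stem-like cells 20.1% and gonadotrope-like cells 18.0%. Each of the 8 genes kept its highest class when barcode copies were kept. In all, 78 of the 104 pairs of a member and a tested class were under 10% of the gene's highest class, a level to which free RNA from broken cells can add; its part was not tested.

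**Figure D2:**
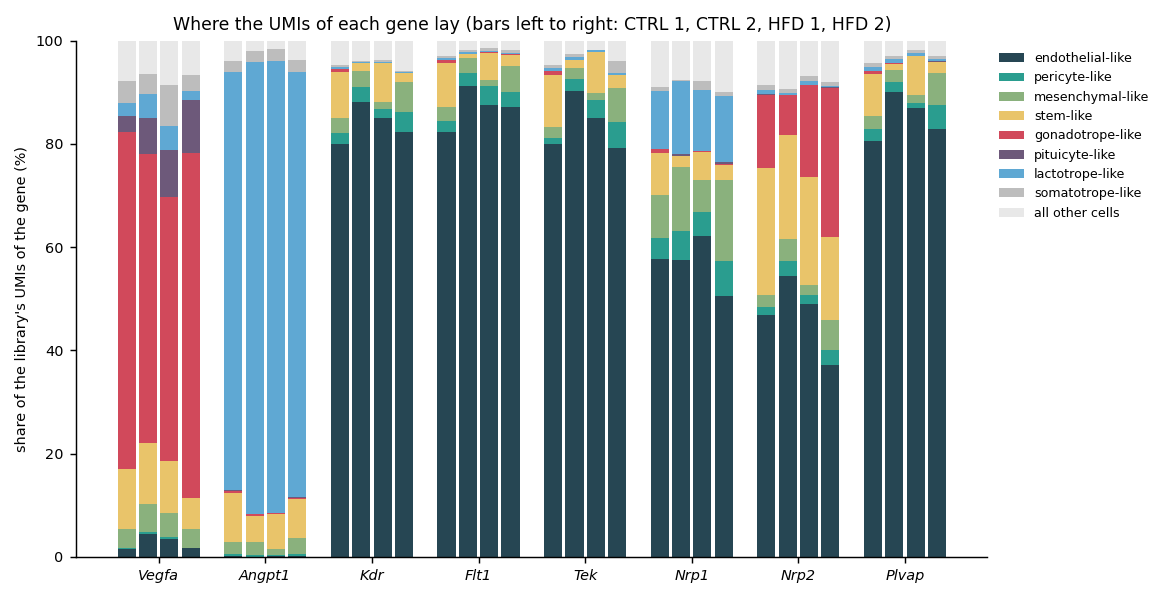
Stacked bars give the share (%) of a library's UMIs of each gene that lay in each cell class, with 4 bars per gene for CTRL 1, CTRL 2, HFD 1 and HFD 2 from left to right. Most Vegfa UMIs lay in gonadotrope-like cells, most Angpt1 UMIs in lactotrope-like cells and most Kdr, Flt1, Tek and Plvap UMIs in endothelial-like cells.

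Levels outside the endothelial-like class were set beside the endothelial markers. In pericyte-like cells, the mural cells that wrap capillaries, Kdr stood at 20% to 32.7% of its endothelial-like level, Flt1 at 19.9% to 47.2% and Plvap at 13.6% to 38.3%. The 9 endothelial markers summed to 20.5% to 39.5% of their endothelial-like level in the same cells. Kdr UMIs lay in 28 of 125 pericyte-like cells, at a mean of 14.3 UMIs in each such cell, against 11.4 in endothelial-like cells with a Kdr UMI. Nrp1 differed from this pattern, at 51.3% to 91.4% of its endothelial-like level and with a UMI in 95 of 125 cells. The 18 pericyte-like cells without any UMI of the 9 endothelial markers had 0 UMIs of Kdr, Flt1 and Tek, and Nrp1 at 244 CPM. In the other 107 cells Kdr stood at 423, Flt1 at 300, Tek at 84.5 and Nrp1 at 423 CPM. The cells without a marker UMI were shallow, at a median of 1652.5 against 6090 UMIs. Whether endothelial fragments or doublets carry these receptor UMIs was not tested.

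Stem-like cells also showed a split between genes, but with Nrp1 on the side of Kdr and Flt1. In the 1105 stem-like cells without any UMI of the 9 endothelial markers, Kdr was at 0.627 CPM and Flt1 at 0.228 CPM, against 117 and 63.1 CPM in the 228 cells with such a UMI. Nrp1 was at 4.61 CPM in the cells without a marker UMI and at 45.1 CPM in the others. Nrp2 was at 79.5 CPM in the cells without a marker UMI and at 126 CPM in the others, and Angpt1 was at 43.4 and 38.4 CPM. Splitting cells by marker UMIs also sets apart other genes that run with the markers, and the cells with such a UMI were deeper, at a median of 23255 against 13163 UMIs. In macrophage-like cells without a marker UMI, 401 of 466, Nrp1 was at 92.9 CPM.

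Many single endothelial-like cells had UMIs of several of these genes. After thinning, 78.1% of 1090 cells had UMIs of at least 4 of the 6 genes Kdr, Flt1, Tek, Nrp1, Nrp2 and Plvap, and 10.6% had all 6. The share with at least 4 was 78.7% and 77.6% in CTRL and 80.4% and 75.6% in HFD.

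Clustering the endothelial-like cells again, without the members, gave 5 subsets of at least 50 cells. A subset of 66 cells led by Cxcl12, Car4 and Rbp7 had Flt1 at 2920, 2845, 2942 and 3150 CPM in CTRL 1, CTRL 2, HFD 1 and HFD 2. A subset of 180 cells led by Cldn5 and Prnd had Flt1 at 614, 413, 536 and 395 CPM. The 2 ranges lay far apart, and both subsets held cells of all libraries. The Cxcl12-led subset also had Nrp1 at 1437, 1430, 1037 and 1424 CPM and Nrp2 at 317, 334, 473 and 277 CPM. In the Cldn5-led subset Nrp1 lay between 544 and 647 CPM and Nrp2 between 692 and 880 CPM, so the neuropilins stood in opposite order in these subsets. Bmx, an arterial gene, had 10 UMIs in the Cxcl12-led subset (26.9 CPM, exact 95% Poisson interval 12.9 to 49.4) and 0 in the Cldn5-led subset. Nr2f2, a venous gene, stood at 21.5 and 167 CPM. The arterial genes Gja4, Gja5, Bmx and Hey1 summed to 118 and 21.8 CPM in these subsets. The venous genes Vwf, Nr2f2, Selp and Vcam1 summed to 75.2 and 172 CPM. Without Nr2f2 the venous genes together were higher in the Cxcl12-led subset, so no vessel type is read from these lists. A further 2 subsets were led by neuroendocrine genes (31 cells) and by macrophage genes (23 cells). The largest subset, 342 cells led by the interferon-response genes Cxcl10 and Ifit1, held 13 and 193 cells of CTRL 1 and 2 and 30 and 106 cells of HFD 1 and 2, so library 2 of each diet held more of it than library 1.

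**Figure D3:**
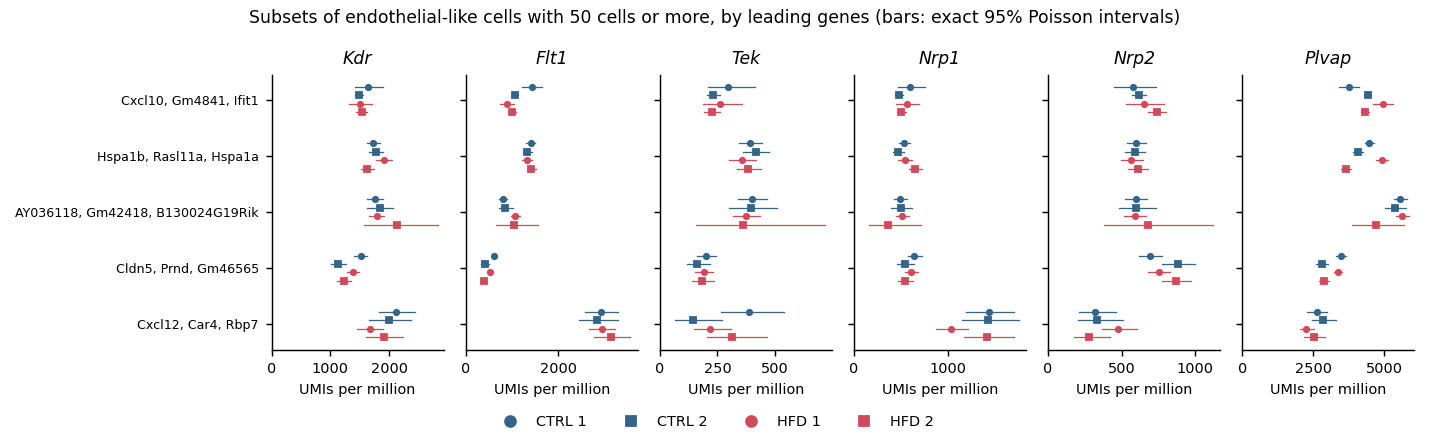
Each panel plots the CPM of 1 gene (horizontal axis) in the 5 subsets of endothelial-like cells with at least 50 cells (vertical axis, named by 3 leading genes), 1 symbol per library with exact 95% Poisson intervals that cover counting error only. Flt1 and Nrp1 are highest, and Nrp2 lowest, in the subset led by Cxcl12.

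The genes whose levels ran most like each member over the 68 points of 17 classes and 4 libraries were listed among 14062 genes, as a description, since the points share libraries and classes. Kdr ran most like Igfbp3 (Pearson r of log2(CPM + 1) 0.95), then Plvap and Cdh5, and Plvap most like Cdh5 (0.95), Emcn and Fam167b. Flt1 ran most like Irx3 (0.93), Tek and Exoc3l2, and Tek most like Irx3 (0.95), Exoc3l2 and Scarf1. Nrp1 ran most like Col15a1 (0.84), Fam167b and Ptgs1, and Nrp2 most like Col4a1 (0.85), Map4 and Kitl. Vegfa ran most like Pdpn (0.76), Crym and Mn1, and Angpt1 most like Dbn1 (0.74), Perp and Loxl1. The ligands therefore had no partner as close as those of Kdr, Tek and Plvap.

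The next question was whether the high-fat diet changed these levels. UMI counts were summed per class and library and tested with edgeR's quasi-likelihood F-test, with Benjamini-Hochberg adjustment over all genes of a fit, and a gene was called where that adjusted p was below 0.05. The fitted log2 values give HFD over CTRL, with their standard error (SE). Of the 104 pairs of member and class, 61 had enough counts to be in a fit, and 1 passed, namely Nrp2 in gonadotrope-like cells, where it rose. Over all class fits, 0.246% of genes passed. A further 9 of the 61 pairs had an unadjusted p under 0.05 and did not pass. Over all genes the share with such a p differed by class. It ran from 361 of 10022 genes in endothelial-like cells to 2643 of 12534 in gonadotrope-like cells. Whether the members held more such values than all genes did was not tested.

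Nrp2 in gonadotrope-like cells stood at 54.4 and 42.0 CPM in the CTRL libraries and at 110 and 109 CPM in the HFD libraries. Both HFD libraries lay above both CTRL libraries, by more than the spread within either diet. Of all genes tested in gonadotrope-like cells, 55.5% had no overlap of the diets. The log2 change was 1.32 (SE 0.13, adjusted p = 0.00534 in edgeR), or 2.49-fold, and the gene ranked 4 by p among 12534 genes of that fit. In gonadotrope-like cells 127 genes, or 1.01%, passed, and 0.606% passed as higher in HFD. Nrp2 there was at 13.2% of its endothelial-like level, below the 20% at which a class was to be described in full, and is named after its values were seen.

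The share of gonadotrope-like cells with a Nrp2 UMI, after thinning, was 7.73% and 8.43% in CTRL and 21.1% and 18.1% in HFD. Without thinning the shares were 58.4%, 50.3%, 79.6% and 73.7%, at median depths of 33207, 26923, 27182 and 26164 UMIs. In somatotrope-like cells, which set the background, 0.155% had a Nrp2 UMI after thinning and 1.02% before. Gonadotrope-like cells without any endothelial marker UMI had Nrp2 at 48.4, 40.6, 110 and 105 CPM in CTRL 1, CTRL 2, HFD 1 and HFD 2, nearly the levels of the whole class. The summed endothelial markers in gonadotrope-like cells were 31.0, 14.1, 10.7 and 11.2 CPM with 0 of 9 markers at 0. Markers of somatotropes summed to 20801, 4142, 2358 and 7579 CPM there, and stem markers to 225, 28.8, 42.8 and 39.2 CPM, with 0 of 7 and 0 of 8 at 0. The part of endothelial, somatotrope and stem RNA in the result was not tested.

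Barcode copies were frequent among the gonadotrope-like barcodes of HFD 1. With copies kept, 70.1% of its HFD 1 cells were copies of another library, which held 14.0% of its UMIs there. With copies kept the Nrp2 change was 1.29 on the log2 scale (adjusted p = 0.00638 in edgeR), so the call stood either way. It also stood in the 12 other alternatives run, at 1.16 to 1.52 on the log2 scale, with adjusted p values up to 0.0475.

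In the other fits with Nrp2 the log2 values were smaller. The largest was 0.85 in corticotrope-like cells (SE 0.39, adjusted p = 0.510 in edgeR), at 0.503% of the endothelial-like level. Stem-like cells had 85.6 and 84.5 CPM in CTRL and 112 and 91.1 CPM in HFD. The diets did not overlap there, as for 39.1% of genes in that class. In endothelial-like cells the log2 value was 0.11 (SE 0.17, adjusted p = 1.00), in stem-like cells 0.23 (SE 0.12, adjusted p = 0.690), in mesenchymal-like cells 0.33 (SE 0.27, adjusted p = 0.984) and in pericyte-like cells 0.53 (SE 0.33, adjusted p = 0.998), all in edgeR. Whether the Nrp2 change was larger in gonadotrope-like cells was tested in fits over both classes with the library as a block, chosen after seeing these values. The log2 difference was 1.20 (SE 0.22, adjusted p = 0.529) against endothelial-like cells and 1.09 (SE 0.17, adjusted p = 0.084) against stem-like cells, in edgeR. Neither passed, nor did those against mesenchymal-like cells (1.00, adjusted p = 0.663) and pericyte-like cells (0.83, adjusted p = 0.981), so the change is not shown to be particular to gonadotrope-like cells.

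Vegfa in gonadotrope-like cells moved the other way without passing. Its level was 175 and 190 CPM in CTRL and 117 and 134 CPM in HFD, so the diets did not overlap there, as for 55.5% of the genes tested in that class. The log2 value was -0.38 (SE 0.091, adjusted p = 0.0787 in edgeR). It passed with no filter on low counts (adjusted p = 0.00776) and with putative doublets kept (adjusted p = 0.0457), and in none of the other 11 alternatives, among them the fit with barcode copies kept (log2 -0.35, adjusted p = 0.0780). Vegfa there also passed with the replicate numbers crossed between the diets, a fit given in the closing section and not counted among these alternatives. The thinned share of gonadotrope-like cells with a Vegfa UMI was 30.4% and 29.2% in CTRL, and 20.4% and 20.3% in HFD. Vegfa and Nrp2 UMIs were found in the same thinned cell in 5 of 194, 4 of 178, 8 of 147 and 13 of 354 cells. Among Vegfa-positive thinned cells 8.47%, 7.69%, 26.7% and 18.1% had a Nrp2 UMI, beside 7.41%, 8.73%, 19.7% and 18.1% among Vegfa-negative cells, so the thinned shares rest on few cells with both. Without thinning 61.5%, 54.8%, 82.9% and 76.5% of Vegfa-positive cells had a Nrp2 UMI, against 27.8%, 5.88%, 55.6% and 51.3% of Vegfa-negative cells, where deep cells show both genes more often.

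Vegfa in pituicyte-like cells stood at 141 and 145 CPM in CTRL and at 250 and 169 CPM in HFD, where HFD 1 was far above the rest. The log2 value was 0.51 (SE 0.26, adjusted p = 1.00 in edgeR). With barcode copies kept, which made up 60% of the HFD 1 barcodes of this class and 16.3% of its UMIs there, it was 0.48 (SE 0.24, adjusted p = 0.924). The diets did not overlap, as for 32% of genes in that class, of which 0 passed in edgeR (301 at an unadjusted p under 0.05) and 2 in DESeq2. The class held 22 to 75 cells per library. Gonadotrope markers summed to 241, 90.3, 169 and 13578 CPM in these cells, with 0 of 8 at 0, and their part in the Vegfa level was not tested. In mesenchymal-like cells Vegfa had a log2 value of -0.56 (SE 0.27, adjusted p = 0.984), with HFD 2 alone well below the rest. In stem-like cells the levels were 28.1 and 30.3 CPM in CTRL and 19.9 and 18.1 CPM in HFD (log2 -0.64, SE 0.14, adjusted p = 0.502 in edgeR), with no overlap of the diets, as for 39.1% of genes in that class. It passed with the replicate number as a block (adjusted p = 0.0219) and with no filter on low counts (adjusted p = 0.0200), in edgeR. After thinning, the share of stem-like cells with a Vegfa UMI was 3.77%, 4.01%, 4.10% and 6.91%, which went the other way, so no order is read from it. The log2 difference of gonadotrope-like from pituicyte-like cells was -0.88 (SE 0.31, adjusted p = 0.442 in edgeR).

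Angpt1 in lactotrope-like cells stood at 166 and 149 CPM in CTRL and at 222 and 203 CPM in HFD, without overlap. The log2 value was 0.38 (SE 0.10, adjusted p = 0.138 in edgeR), and it passed in 1 of 13 alternatives, the fit with no filter on low counts (adjusted p = 0.0215). With barcode copies kept the log2 value was 0.37 (adjusted p = 0.136 in edgeR). In lactotrope-like cells 0.791% of genes passed, and 40.1% had no overlap of the diets. The same order was seen in both lactotrope-like clusters, with Angpt1 at 153 and 131 CPM in CTRL against 207 and 184 in HFD in one, and at 193 and 173 against 254 and 254 in the other. The thinned share of cells with an Angpt1 UMI was 26.6% and 27.0% in CTRL and 34.7% and 33.4% in HFD.

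Angpt1 in mesenchymal-like cells had the opposite sign, with 109 and 100 CPM in CTRL and 65.9 and 68.9 CPM in HFD (log2 -0.65, SE 0.19, adjusted p = 0.984 in edgeR). The diets did not overlap, as for 34.1% of genes in that class, in which 0 genes passed in edgeR (419 at an unadjusted p under 0.05) and 6 in DESeq2. Lactotrope markers summed to 27002, 12985, 626 and 594 CPM in mesenchymal-like cells, with 0 of 8 at 0, and so were higher in the CTRL libraries where Angpt1 was higher, and their part in the difference was not tested. The log2 difference between lactotrope-like and mesenchymal-like cells was 1.02 (SE 0.25, adjusted p = 0.486 in edgeR) and did not pass. Of all 10 such differences between classes that were tested, each chosen after seeing the data, 5 had an unadjusted p under 0.05 and 0 passed. Over all genes, between 0 of 13053 and 19 of 13893 passed in such a fit. The share of all genes with an unadjusted p under 0.05 in these fits was not counted.

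**Figure D4:**
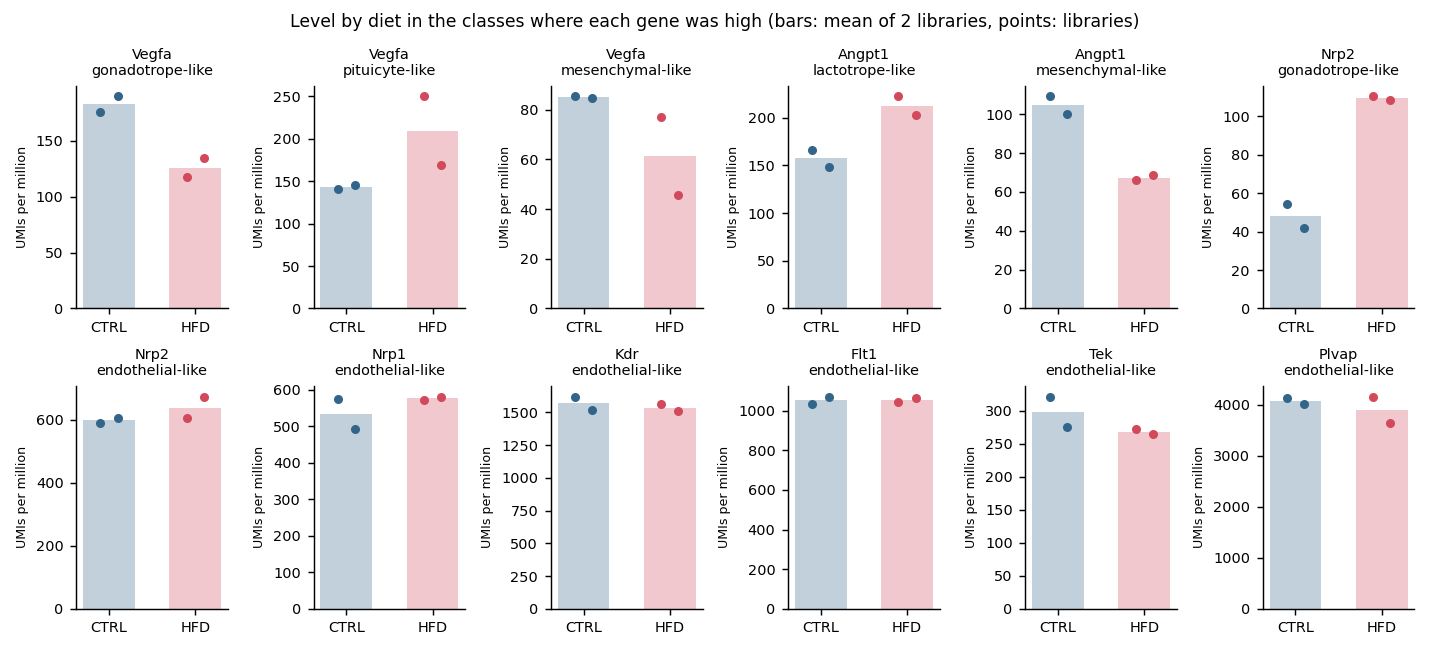
Each panel plots the CPM (vertical axis, from 0) of 1 gene in 1 class, with a bar for the mean of the 2 libraries of a diet and a point for each library. Nrp2 in gonadotrope-like cells is at 110 and 109 in HFD against 54.4 and 42.0 in CTRL, while the endothelial-like panels show bars of nearly equal height.

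In endothelial-like cells the diets were close for all 6 receptor and Plvap genes. The log2 values in edgeR were -0.014 for Kdr (SE 0.15), 0.014 for Flt1 (SE 0.16), -0.14 for Tek (SE 0.15), 0.13 for Nrp1 (SE 0.15), 0.11 for Nrp2 (SE 0.17) and -0.049 for Plvap (SE 0.16), with adjusted p = 1.00 for each. Of the 6 genes, 1 had no overlap of the diets, Tek, which was lower in HFD, as against 28.9% of all genes in that class. In endothelial-like cells 0.0499% of genes passed. These SEs leave room for small differences, and a p that misses the threshold does not show equal levels.

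The pericyte-like class held 20 to 44 cells per library, and its values were less sure. Tek stood at 33.1 and 55.4 CPM in CTRL and at 123 and 114 CPM in HFD (log2 1.37, SE 0.37, adjusted p = 0.998 in edgeR), without overlap. It passed with the replicate number as a block (adjusted p = 0.0455). The Tek level rests on 80 UMIs in 22 of 125 cells, and all 80 lay in cells with at least 1 endothelial marker UMI. In this class 0 of 4946 genes passed in edgeR (188 at an unadjusted p under 0.05) and 1 in DESeq2, and 31.6% had no overlap of the diets. Summed endothelial markers in pericyte-like cells, relative to endothelial-like cells, were at 20.5% and 23.6% in CTRL and 25.5% and 39.5% in HFD, and so were higher in HFD as well. Nrp1 there was at 294 and 362 CPM in CTRL and 465 and 531 CPM in HFD (log2 0.58, SE 0.29, adjusted p = 0.998 in edgeR), and Flt1 at 206 and 225 against 493 and 253 (log2 0.74, SE 0.34, adjusted p = 0.998). The Flt1 value was 0.22 on the log2 scale without HFD 1 and 0.80 with barcode copies kept, and with them kept that of Tek was 1.35 and that of Nrp1 0.70, none of which passed in edgeR. The part of carried-over endothelial RNA in these differences was not tested.

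**Figure D5:**
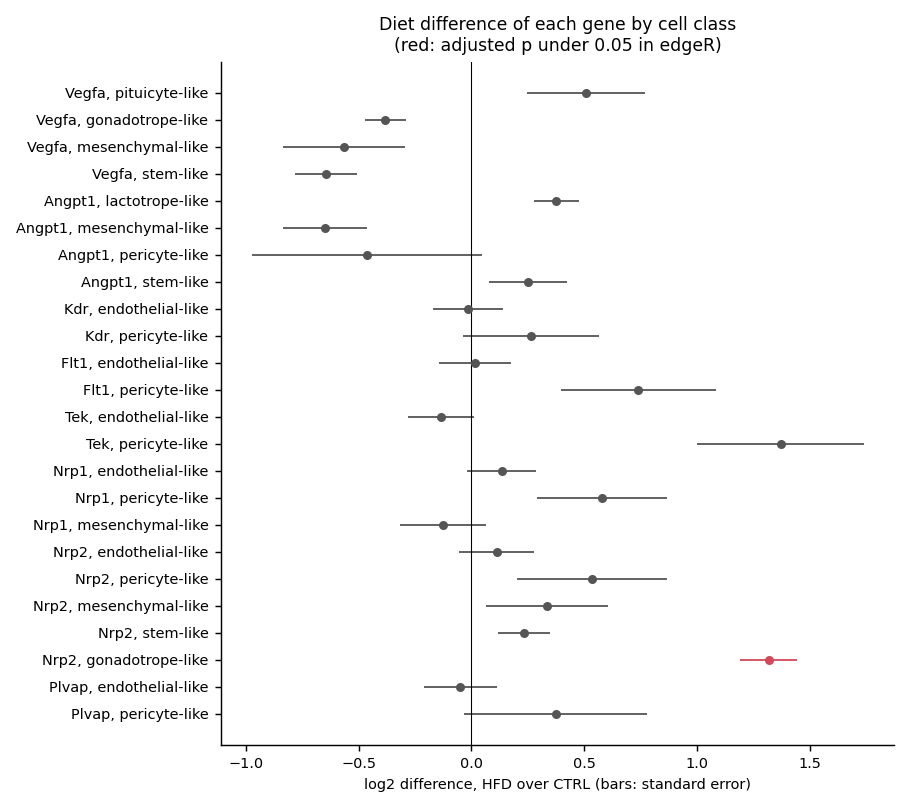
Points give the log2 difference of HFD over CTRL from edgeR, with bars for the SE, for members in the classes where they were at 20% or more of their highest level and for Nrp2 and Vegfa in further classes; red marks an adjusted p under 0.05. Nrp2 in gonadotrope-like cells, at 1.32, is the single red point, and Tek in pericyte-like cells, at 1.37, has an SE of 0.37.

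Over the whole gland none of the 8 genes passed. In edgeR 0 had an adjusted p under 0.05 and 1 (Nrp2) an unadjusted p under 0.05, and in DESeq2 0 passed. Of all 18530 genes of the whole gland, 1832 had an unadjusted p under 0.05 in edgeR. Nrp2 stood at 29.3 and 28.0 CPM in CTRL and at 36.9 and 39.3 CPM in HFD (log2 0.37, SE 0.078, adjusted p = 0.361), and Nrp1 at 23.1 and 21.5 against 27.5 and 24.9 CPM (log2 0.19, SE 0.087, adjusted p = 0.535). These 2 had no overlap of the diets, as did 42.5% of all genes, and 0.0108% of all genes passed. The other 6 genes overlapped: Vegfa at 20.3 and 17.3 against 13.6 and 20.9 CPM, Angpt1 at 39.7 and 43.2 against 52.3 and 37.1, and Kdr at 47.0 and 43.3 against 54.9 and 39.7. Flt1 stood at 29.2 and 29.5 against 35.6 and 26.4 CPM, Tek at 9.33 and 7.70 against 9.58 and 7.23, and Plvap at 119 and 112 against 143 and 94.9. In whole-gland sums fewer cells of a class and less RNA per cell cannot be told apart.

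The makeup of the gland was therefore checked beside these sums. Endothelial-like cells were 5.08% and 5.51% of cells in CTRL and 5.11% and 3.51% in HFD (log2 -0.30, adjusted p = 0.720 in edgeR), and gonadotrope-like cells 4.53% and 2.68% in CTRL and 2.50% and 5.17% in HFD. Of the 17 class shares 0 passed in edgeR and 1 had an unadjusted p under 0.05 (melanotrope-like cells), and with 2 libraries against 2 an exact two-sided permutation test cannot go below p = 0.333. The whole-gland Vegfa levels of the 4 libraries stood in the same order as their gonadotrope-like shares, with HFD 2 highest and HFD 1 lowest.

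The wider pathway was read from 44 further genes in 7 groups: other VEGF ligands, other angiopoietins, class 3 semaphorins, other receptors, receptor-bound regulators, genes that follow VEGF signalling, and the hypoxia genes upstream of Vegfa. Over the whole gland and the 13 class fits they gave 343 pairs of gene and fit, of which 0 passed in edgeR and 49 had an unadjusted p under 0.05. Beside these, 1832 of all 18530 genes had such a p in the whole gland. By class it was found for 361 of 10022 genes in endothelial-like cells, the lowest share, up to 2643 of 12534 in gonadotrope-like cells. In DESeq2 5 pairs passed, namely Grb10, Esm1, Egr3 and Vegfd in the whole gland and Vegfd in gonadotrope-like cells, which are named after their values were seen. DESeq2 called 1.01% of the 18530 genes of the whole gland and 1.38% of the 12534 genes of gonadotrope-like cells. Esm1 was highest in melanotrope-like cells, which were 7.47% and 12.7% of cells in CTRL and 3.22% and 4.79% in HFD. Its whole-gland call cannot be told apart from that difference in makeup. In endothelial-like cells 34 were tested, with 20 log2 values above and 14 below 0 and a median of 0.051, beside -0.0091 over all genes there. In gonadotrope-like cells 24 were tested, with 12 above and 12 below 0 and a median of -0.054, beside 0.0027 over all genes. In lactotrope-like cells 28 were tested, with 12 above and 16 below 0 and a median of -0.056, beside 0.0021. Pituicyte-like cells had 4 above and 12 below 0 of 16 tested, with a median of -0.41, beside -0.0023 over all genes. The counts above and below 0 were 9 and 18 in mesenchymal-like cells (median -0.11), 3 and 9 in macrophage-like cells (median -0.037) and 11 and 6 in pericyte-like cells (median 0.21). In somatotrope-like cells they were 13 and 19 (median -0.11), in corticotrope-like cells 16 and 10 (median 0.19), in melanotrope-like cells 16 and 10 (median 0.069) and in stem-like cells 18 and 17 (median 0.010).

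By level, 17 of the 44 genes were highest in endothelial-like cells. Among other VEGF ligands, Vegfd, a ligand of the lymphatic receptor, was highest in gonadotrope-like cells, at 93.6 and 105 CPM in CTRL and 151 and 118 CPM in HFD. Vegfc was highest in endothelial-like cells at 66.1 to 98.6 CPM, as was the TIE2 antagonist Angpt2 at 35.4 to 55.0 CPM, while Angpt4 stood at 0 to 3.68 CPM in pericyte-like cells. Among semaphorins, the neuropilin ligands Sema3f (97.1 to 113 CPM) and Sema3d (70.6 to 101 CPM) were highest in endothelial-like cells. So were the semaphorin receptor Plxnd1 (308 to 365 CPM), the orphan receptor Tie1 (257 to 364 CPM) and the phosphatase Ptprb, which acts on TIE2 (528 to 606 CPM), while the adaptor Sh2d2a was highest in T or NK cell-like cells (190 to 363 CPM).

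Esm1 and Rcan1, known in endothelium as genes that follow VEGF signalling, were highest elsewhere, in melanotrope-like cells of the intermediate lobe, at 670 to 839 CPM and 234 to 500 CPM. Among hypoxia genes the factor Epas1 was highest in pericyte-like cells (456 to 626 CPM) and the glycolytic enzyme Ldha in endothelial-like cells (310 to 386 CPM).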

How the data were processed

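The deposited values were UMI counts per gene and barcode, whole numbers that the authors had not normalized. Per the submitters' processing notes the tools were Cell Ranger 6.1.2 and Seurat 4.3, and the build was mm10, with no role given for either tool. The gene annotation is not given in the sources used here. For this description, the 8 genes, the marker lists and the wider list were chosen with earlier results of these data known.

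Cells were barcodes of 500 or more genes with no more than 20% of UMIs from mitochondrial genes, without barcode copies. Putative doublets were scored per library against simulated doublets and removed at 0.8% per 1000 cells. Clustering (scanpy 1.11.5, leidenalg 0.10.2) used 2000 variable genes without the 8 genes and the wider list, 30 components, 20 neighbours and resolution 0.8. Clusters were named from marker lists. Leading genes left 3 clusters unnamed, and 1 of 490 cells had under 3 detected markers of a list.

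Counts were summed per library and class (at least 20 cells in every library) and tested with edgeR 4.0.16 (TMM, filterByExpr, quasi-likelihood F-test), after a check on simulated data. DESeq2 1.42.0 and the other settings tried are given in the closing section. Genes are described by library in classes at 20% or more of their highest level, in the others by ranges. The wider list is given by its counts, with the genes of highest level in each group named. Intervals (95%) cover counting error only. No strand setting of the counting is stated, so antisense and overlapping genes cannot be told apart.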

Additional observations from a re-analysis of the deposited data

How the results depend on the processing

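Of the pairs of gene and cell class, 1 passed in the fit as reported (Nrp2 in gonadotrope-like cells), and it passed in all 13 alternatives. The count of pairs was 9 with no filter on low counts and 2 with putative doublets kept (Vegfa in gonadotrope-like cells was the other). Leaving out 1 library gave 1 to 5, with 4 and 5 when CTRL 1 or CTRL 2 was left out and 3 and 1 when HFD 1 or HFD 2 was, where a lone library is assumed to vary like the others. With 1 library left out the further pairs were Plvap or Kdr in classes under 10% of their highest level, and Nrp1 in lactotrope-like cells without HFD 1. Of the 17 class shares, 0 passed as reported and 0 to 1 with 1 library left out, Schwann or glia-like cells without HFD 1 and melanotrope-like cells without HFD 2.

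With the replicate number as a block, 4 pairs passed: Nrp2 in gonadotrope-like cells (adjusted p = 0.00591), Tek in pericyte-like cells, and Plvap and Vegfa in stem-like cells (Vegfa log2 -0.65, adjusted p = 0.0219). Vegfa in stem-like cells also passed with no filter (adjusted p = 0.0200). The labels do not pair the libraries: same-numbered libraries deviated together with r from -0.18 to 0.36 over the classes. Where r was under -0.1, the crossed pairing called 281 genes in somatotrope-like cells and 54 in T or NK cell-like cells, against 33 and 0 with the numbers as given. In gonadotrope-like cells, where r was -0.044, it called 736 genes, Nrp2 and Vegfa among them.

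Counts of genes called moved with the setting. The whole gland had 2 genes as reported, 188 in DESeq2, 65 with no filter, 4 with the replicate block and 1 to 154 with 1 library left out (154 without HFD 2). Gonadotrope-like cells had 127, then 204 with barcode copies kept, 210 with putative doublets kept, 1150 with no filter, 6 after thinning and 40 to 105 with 1 library left out. Endothelial-like cells had 5, then 86 with the block, 23 with no filter, 0 with putative doublets kept and up to 22 without CTRL 2. Lactotrope-like cells had 109, then 323 with the block, 566 with no filter, 37 after thinning and 23 to 461 with 1 library left out. The 0 of mesenchymal-like and pericyte-like cells became 8 and 34 with the block, 156 and 24 with no filter, and up to 36 and 61 without CTRL 2. The cause of these shifts was not tested.

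With putative doublets kept, a cluster of high-UMI cells joined the endothelial-like class, and its levels were lower, for example 1147 CPM for Kdr and 2938 CPM for Plvap. After thinning to 1000 UMIs, 7 of the 8 genes kept the class with the highest share of cells. Vegfa was the exception, as gonadotrope-like cells then led. Pericyte-like and pituicyte-like cells, at 20 to 75 cells per library, leave wide errors, and 2 libraries per diet limit every test.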

Other observations

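Some Angpt1 lay outside the named classes. A cluster of 217 cells with a median of 1965 UMIs, left unnamed for its leading hemoglobin and long nuclear RNAs, had Angpt1 at 125 CPM (exact 95% Poisson interval 97.0 to 157). By library the Angpt1 level of this cluster was 131, 125, 62.6 and 158 CPM in CTRL 1, CTRL 2, HFD 1 and HFD 2, from 8, 13, 9 and 40 UMIs. It entered no test.

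Nrp1 in lactotrope-like cells, at 2.69% of its endothelial-like level, stood at 13.3 and 12.0 CPM in CTRL and at 15.7 and 20.9 CPM in HFD (log2 0.49, SE 0.17, adjusted p = 0.310 in edgeR). The Nrp1 level was 0.230 to 1.08 CPM in somatotrope-like, 0.344 to 1.14 CPM in corticotrope-like and 0 to 1.12 CPM in melanotrope-like cells. Angpt1 in gonadotrope-like cells, at 0.859% of its lactotrope-like level, stood at 2.16 and 3.20 CPM in CTRL and at 1.04 and 0.439 CPM in HFD (log2 -1.88, SE 0.57, adjusted p = 0.121 in edgeR). These levels came from 14, 15, 4 and 4 UMIs in CTRL 1, CTRL 2, HFD 1 and HFD 2. Lactotrope markers summed to 4533, 2826, 250 and 2602 CPM in gonadotrope-like cells, in the same order. Their part in the Angpt1 level was not tested. Over all libraries the Angpt1 level was 1.53 CPM in gonadotrope-like and 2.48 CPM in somatotrope-like cells. The CTRL means of these classes were 2.68 and 2.45 CPM, and the HFD means 0.742 and 2.54 CPM. The part of free RNA in these low levels was not tested.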
